A study of Mus musculus with 17 samples.

Results

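V1 interneurons are inhibitory neurons of the ventral spinal cord that arise from progenitors of the p1 domain and switch on the homeodomain factor En1 as they leave the cell cycle. They were studied here at birth (P0) and at the embryonic stage E12.5 as all 6 V1 arrays of these ages among the 17 arrays of the series, 3 at each age. The genotype of both V1 groups was En1-Cre; Rosa.lsl.YFP and the tissue was spinal cord. In these mice Cre under the control of En1 switches on YFP for good in cells that have expressed En1, and YFP-labelled cells were sorted by FACS. The sorted cells are therefore a lineage, which keeps its label whether or not En1 is still expressed. The other class of the series, used only to test where V1 differs, was sorted the same way from Ptf1a-Cre; Rosa.lsl.YFP mice (dI4, dorsal inhibitory interneurons) at P0 and at E12.5, with 3 arrays each. All groups share the Rosa.lsl.YFP reporter and carry a Cre allele. The labels call the arrays of a group biological replicates, and the number of animals or litters behind an array is not stated in them, so p-values measure the spread between these samples.

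Spinal inhibitory interneurons are born from dividing progenitors, become postmitotic, extend an axon, and then acquire the vesicles, receptors and ion channels of a working synapse. V1 neurons release GABA and glycine onto motor neurons and other interneurons, and they include the Renshaw cells and the Ia inhibitory interneurons. In young neurons GABA and glycine can depolarize the cell, and expression of the chloride exporter KCC2 is part of the later change to inhibition.

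Values are log2 signals on Affymetrix arrays, from amplified RNA of the sorted cells. V1 replicates 1 and 3 at P0 were nearly the same: 5 genes differed at least 2-fold between them, against 223 and 233 for the other pairs at P0 and 392 to 419 for pairs at E12.5. They entered as their mean, so P0 has n = 2 and E12.5 has n = 3, and the first P0 value given below is that mean. The deposited distributions differed by age, with array medians of 5.39 and 5.32 at P0 against 3.16, 3.17 and 3.12 at E12.5, and across tested genes the deposited P0 value exceeded the E12.5 value by a median of 2.32. The arrays were therefore quantile normalized together, which lowered the median difference to 0.15, and every difference below is relative to the rest of the array. The 18 hybridization controls, added in the same amount to every array, had medians of 13.90 to 14.97 as deposited, near the top of the scale. They differed by a median of 0.71 as deposited and 0.06 after joint normalization. The 27 bacterial controls, at the bottom of the scale, differed by -0.16 as deposited and -0.12 after it. Controls at the ends of the scale cannot test the joint normalization of the genes between them. Age and a separate normalization of the ages by the authors cannot be told apart in the deposited values. Of the genes called lower at P0 after joint normalization, 959 of 3915 were also lower as deposited. All 4861 genes called higher were also higher as deposited. The higher deposited values at P0 made that nearly certain, so it is no separate evidence for the rises. In sorted bulk samples, fewer cells of a type and less RNA per cell cannot be told apart.

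Of the genes that define V1 neurons, En1, Lhx1, Lhx5, Gad1, Gad2 and Slc32a1 all lay above every bacterial control probe set at both ages, and Pax2 has no probe set of its own symbol here. Markers of other cells also differed by age. The summed level of 9 microglia markers was 9.68 and 10.34 at P0, against 5.51 to 5.52 at E12.5, where 8 of the 9 lay at the level of the bacterial controls. Of 5 meningeal fibroblast markers, the summed level was 6.36 and 6.74 at P0, against 8.29 to 13.61 at E12.5, with the highest value in E12.5 replicate 1, where Col1a1 read 12.51, against 7.25 and 8.78 in replicates 2 and 3. Of 12 oligodendrocyte lineage markers, the sum was 10.32 and 9.69 at P0, against 8.17 to 8.25 at E12.5. The 8 astrocyte markers summed to 11.46 and 11.48 at P0, against 12.80 to 12.97 at E12.5. Such a sum mostly follows its brightest members. Of the 3 astrocyte markers tested, 1 was called higher and 1 lower (median 0.81), with differences from -1.63 to 3.42, the highest being Aqp4. Of 6 erythroid markers, 5 lay at the control level at P0 and 5 at E12.5, with Hba-a1, Hba-x and Hbb-bh1 among them at both ages, and their sum was 5.13 and 5.16 at P0, against 7.63 to 10.21 at E12.5. Endothelial and pericyte markers summed to 5.61 and 5.81 at P0, against 5.96 to 6.59 at E12.5, with Cldn5, Pecam1, Cdh5 and Kdr at the control level at both ages. Of 12 excitatory interneuron markers, 7 lay at the control level at P0 and 6 at E12.5, and they summed to 6.46 and 6.69 at P0, against 7.62 to 8.66 at E12.5, with 3 of 5 tested called lower (median -1.65). Of 5 motor neuron markers, Chat, Slc18a3, Slc5a7 and Mnx1 lay at the control level at both ages, and the sum was 4.45 and 5.00 at P0, against 6.22 to 8.32 at E12.5, and Isl1, the 1 tested member, was called lower (-3.59). The 7 markers of dorsal inhibitory interneurons summed to 9.19 and 8.59 at P0, against 10.16 to 11.25 at E12.5. The part of these cells in the results below was not tested.

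Among 11958 genes tested, 8776 differed between P0 and E12.5 at an adjusted p under 0.05 (limma, Benjamini-Hochberg over all tested genes), which is 73.4%. Higher at P0 were 4861 genes (40.7%) and lower were 3915 (32.7%), and 3391 (28.4%) rose and 2541 (21.2%) fell at least 2-fold. A change by itself was thus the common state of a gene, and the counts for each group of genes below are to be read against these shares. A gene was tested if it lay above the array median on at least 2 of 5 samples. A gene low in all samples of 1 age passed only through the other age, so its direction was largely set by the filter. With each array instead centred on its median and scaled to 1 interquartile range, the median of all genes moved to -2.15, and 2269 calls turned direction. Ranks within each array turned none, and the mean of all probe sets of a gene turned 538. Relative to the median of all genes, 39 of 54 gene lists stayed on 1 side under every scaling. Under that interquartile range scaling the lists of late temporal factors, transmitter genes, glycine receptors, chloride genes, AMPA and kainate receptors, calcium channels, synaptic adhesion, mature axon, cadherin, trophic, apoptosis, growth cone and oxidative phosphorylation genes and of vascular markers changed side, and guidance ligands did under ranks. Changes of at least 16-fold were mostly rises, 516 against 59 falls. The E12.5 level of 811 genes called higher lay within the range of the bacterial controls, and so did the P0 level of 69 genes called lower. For these the fold is given as a lower bound, the mean of the brighter age over the mean of the highest bacterial control value on each array of the dimmer age. The same is done where the mean of the dimmer age lay below the mean of those control values although 1 or 2 of its arrays lay above, with such an array entering at its own value.

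The 12 largest rises without overlap between the ages follow. Slc6a7, a brain proline transporter, read 12.71 and 12.38 at P0, against 2.001, 1.95 and 2.10 at E12.5, which is at least 799-fold higher at P0 (adjusted p = 7.61e-06). Thy1, a surface glycoprotein of maturing neurons, read 12.48 and 12.14 at P0, against 2.06, 2.06 and 2.08 at E12.5, at least 677-fold higher (adjusted p = 7.61e-06). For both genes all E12.5 arrays lay among the bacterial controls and the P0 samples were far above them. Aldoc, the aldolase isoform of brain, read 12.68 and 12.38 at P0, against 4.88, 2.82 and 4.22 at E12.5, with replicate 2 at the control level, a 377-fold rise (adjusted p = 0.000166). Over the mean of all its probe sets the log2 difference of Aldoc was 5.59, against 8.56 on the brightest. For Add3, named below, these values were 4.44 and 7.81. Next came Hap1, a huntingtin-binding trafficking protein (at least 248-fold), Rasgrf2, a calcium-responsive Ras exchange factor (at least 263-fold), Lynx1, a modulator of nicotinic receptors (at least 151-fold), and Vamp1, a vesicle SNARE (at least 172-fold). Arhgdig, an inhibitor of small GTPases, rose at least 165-fold, Shc3, a neuronal adaptor of receptor tyrosine kinases, at least 127-fold, Sybu, a kinesin adaptor for presynaptic cargo, at least 185-fold, Add3, a subunit of the membrane skeleton protein adducin, 224-fold with 2 of the 3 E12.5 arrays at the control level, and Syngr3, a synaptic vesicle protein, at least 123-fold. Lack of overlap between the P0 and E12.5 samples was a condition for naming these 12.

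The largest falls were smaller and more mixed. Hbb-y, an embryonic globin of red blood cells, read 1.96 and 1.96 at P0, against 10.18, 10.13 and 7.45 at E12.5, at least 106-fold lower at P0 (adjusted p = 0.00116). Zic1, a zinc finger factor of the dorsal neural tube, read 4.87 and 4.27 at P0, against 9.43, 10.52 and 10.67 at E12.5 (49.9-fold lower, adjusted p = 0.00021). Skor1, a corepressor known from dorsal interneurons, read 3.08 and 4.57 at P0, against 6.96, 11.04 and 9.95 at E12.5, with E12.5 replicate 1 well below the other E12.5 arrays (45-fold lower, adjusted p = 0.0124). Col2a1, a cartilage and notochord collagen, was at least 34.7-fold lower, Fzd2, a Wnt receptor, at least 29.4-fold and Igfbpl1, an IGF-binding protein family member, at least 30.5-fold. Rai14, an actin-binding protein, fell 44.6-fold and Aqp6, an aquaporin, 40.9-fold. Tuba3a, an alpha tubulin, fell 50.6-fold on a probe set that the manufacturer marks as cross-hybridizing, so the signal may include near-identical tubulins. The remaining genes of the 12 were BB163080, D4Ertd103e and Gm9989, transcripts without an assigned role here, which fell 47.8-fold, 43.6-fold and 35.4-fold. Lack of overlap was again a condition for naming these 12, and all 12 were also lower at P0 in the values as deposited.

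**Figure D1:**
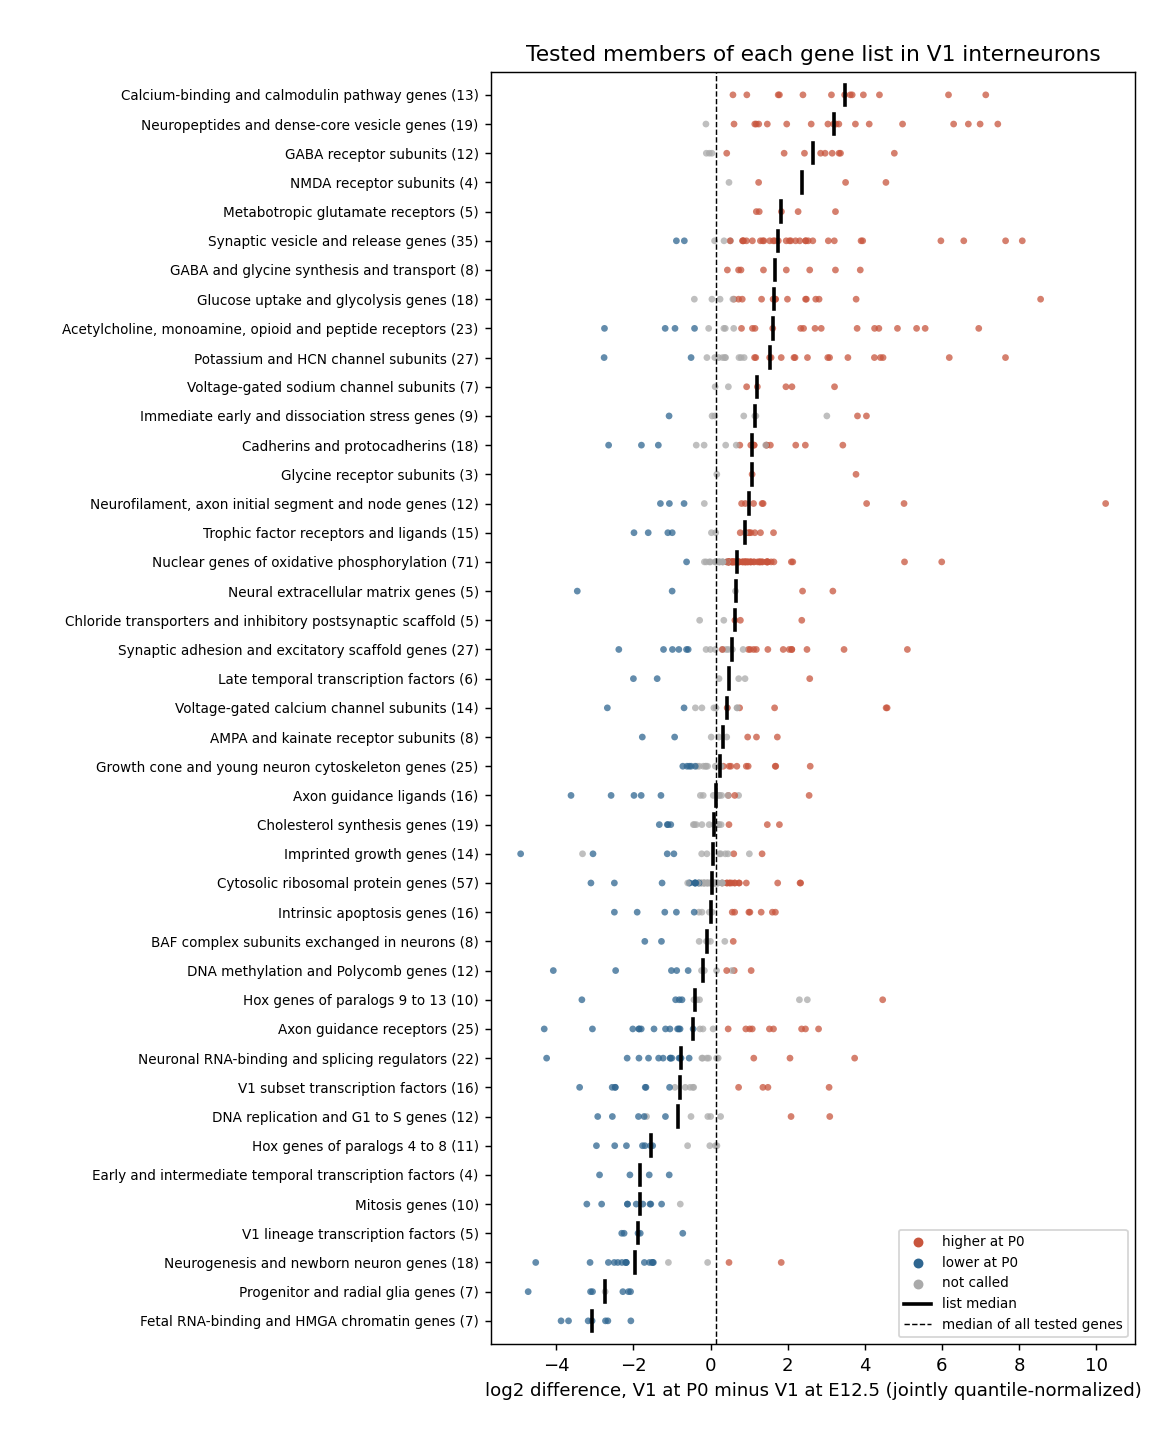
Log2 difference of V1 at P0 minus V1 at E12.5 (horizontal axis) for the tested members of each gene list (rows, with the number tested in parentheses); points are genes coloured by call, thick bars are list medians and the dashed line is the median of all tested genes. Among the lists plotted, which leave out the marker lists of other cells and lists with fewer than 3 tested genes, calcium-binding and peptide genes have the highest medians, 3.48 and 3.19, and fetal RNA-binding and progenitor genes the lowest, -3.07 and -2.73.

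The transcription factors that define the V1 class fell together. En1 itself read 7.45 and 7.44 at P0, against 9.35, 9.65 and 8.81 at E12.5, with no overlap between the ages, a difference of -1.82 ± 0.26 (log2, SE; adjusted p = 0.00207). As deposited, En1 averaged 8.72 at P0 and 8.19 at E12.5, so its fall holds relative to the other genes of the array and not in the deposited values. Lhx1 and Lhx5, LIM homeodomain factors of inhibitory interneurons, had differences of -1.88 ± 0.24 and -2.24 ± 0.28, Foxd3, a forkhead factor of the V1 lineage, of -2.30 ± 0.20, and Otp, a homeodomain factor of ventral interneurons, of -0.72 ± 0.13. All 5 tested lineage factors were called lower, with a median of -1.88 against 0.15 over all genes, and of these only Foxd3 was also lower as deposited. Otp remained bright, at 12.83 ± 0.04 at P0 and 13.55 ± 0.15 at E12.5 (SD, n = 2 and 3).

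Factors that mark subsets of V1 neurons moved apart from each other. Of 16 tested, 4 were called higher, 7 lower and 5 in neither direction, with a median of -0.79. Sp8, a zinc finger factor that marks a V1 subset, read 9.96 and 10.46 at P0, against 9.06, 8.70 and 8.40 at E12.5 (2.81-fold, adjusted p = 0.00388). Nr5a2, a nuclear receptor, rose 2.56-fold. In both the lowest P0 sample lay above the highest E12.5 array. By contrast Foxp2, which marks a large V1 subset, read 10.998 and 10.81 at P0, against 12.51, 13.06 and 12.21 at E12.5 (a difference of -1.69 ± 0.27, adjusted p = 0.00291), Foxp1 had a difference of -2.47 ± 0.27, and Nr4a2, an orphan nuclear receptor, read 9.71 and 9.54 at P0, against 12.92, 13.36 and 12.78 at E12.5, the largest fall of the list (10.5-fold). Prox1, Lmo3, St18, Prdm8 and Esrrb were not called, with differences between -0.92 and -0.44. Some of these factors may first have been picked from arrays of these cells, so their direction is not independent evidence.

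Factors tied to the time at which a spinal neuron is born also divided. All 4 tested early and intermediate factors fell: Onecut1 by 2.88, Onecut2 by 2.09, Zfhx4 by 1.59 and Zfhx3 by 1.07 on the log2 scale. Of 6 late factors, Nfix, a nuclear factor I gene, read 10.93 and 10.85 at P0, against 9.15, 6.98 and 8.81 at E12.5 and rose 5.95-fold (adjusted p = 0.0185). Nfia and Nfib had positive differences that were not called (0.90 ± 0.42 and 0.73 ± 0.65), E12.5 replicate 2 being the lowest array for all 3 NFI genes. Neurod2 and Neurod6, helix-loop-helix factors, fell by 1.38 and 2.00. The median of the late list was above that of all genes except under median and interquartile range scaling.

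Hox genes, which carry the rostrocaudal address of spinal neurons, fell or were not called in most cases. Among paralogs 4 to 8, 7 of 11 tested fell and none rose, with Hoxb7 the largest (-2.96 ± 0.31) and Hoxc4, Hoxb5, Hoxc5 and Hoxa5 not called. Among paralogs 9 to 13, 4 of 10 fell, Hoxb9 the most (-3.33 ± 0.24), and Hoxc13 alone rose, reading 8.58 and 9.40 at P0, against 2.94, 3.05 and 7.59 at E12.5 (adjusted p = 0.0456), with E12.5 replicate 3 far above the other E12.5 arrays. Hoxc10, Hoxd9 and Hoxd10, genes of caudal cord levels, were not called, and Hoxc10 read 13.16 and 12.74 at P0, against 13.09, 13.35 and 13.26 at E12.5. The labels do not say which cord levels were dissected.

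**Figure D2:**
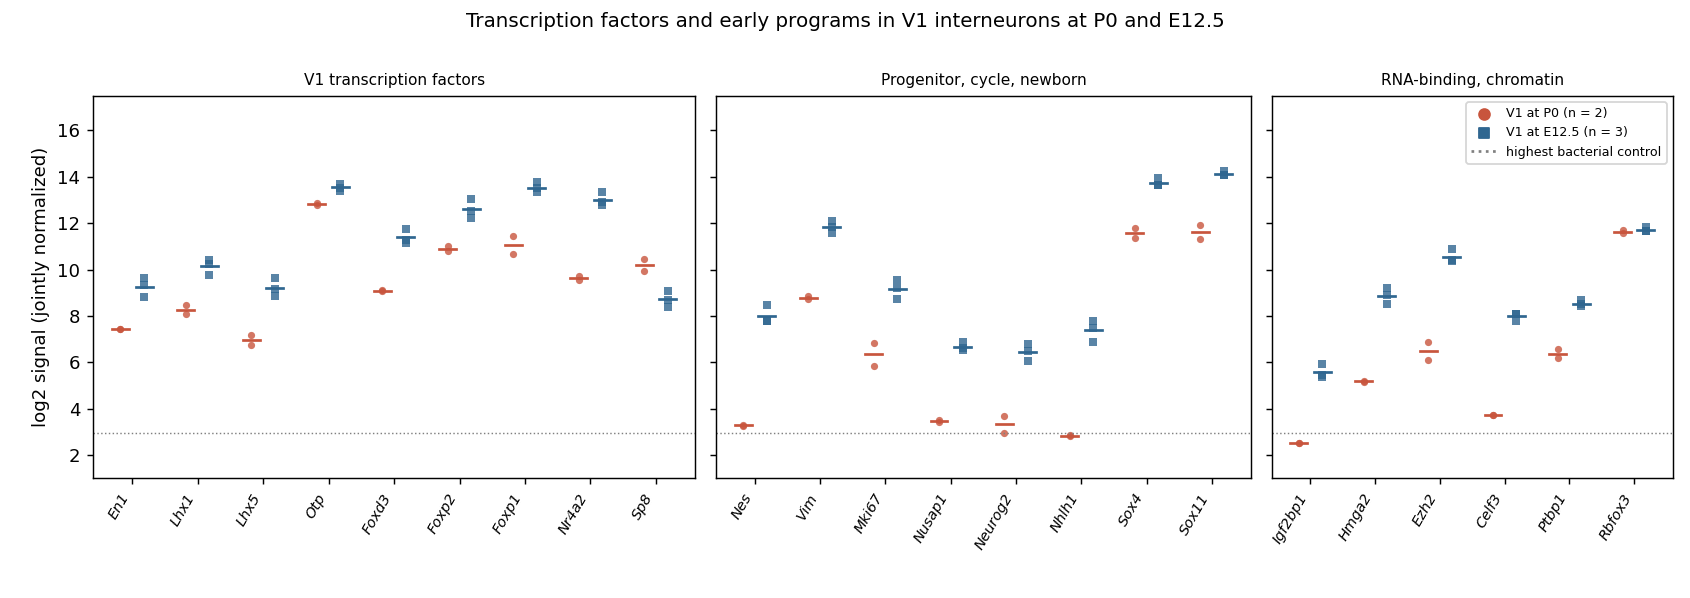
Log2 signal after joint normalization of transcription factors and early programs in each V1 sample, P0 (red circles, n = 2) left of E12.5 (blue squares, n = 3); bars are group means and the dotted line is the highest bacterial control value. En1 reads 7.45 and 7.44 at P0 against 8.81 to 9.65 at E12.5, Nes and Nhlh1 lie near the controls at P0, and Rbfox3 averages 11.63 at P0 against 11.72 at E12.5.

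Genes of progenitors and of division that passed the filter mostly fell. Of 7 tested progenitor and radial glia genes, 6 fell and none rose (median -2.73): Nes, the intermediate filament nestin, read 3.27 and 3.32 at P0, against 7.78, 8.49 and 7.79 at E12.5 (26.5-fold lower, adjusted p = 6.04e-05), Vim, vimentin, had a difference of -3.06 ± 0.18 and Fabp7, a radial glia lipid carrier, of -2.07 ± 0.60. Sox2, the exception, read 3.59 and 2.64 at P0, against 3.75, 7.39 and 6.39 at E12.5 and was not called (adjusted p = 0.0735), with E12.5 replicate 1 close to the P0 values. Of 10 tested mitosis genes, 9 fell and none rose (median -1.84). Mki67, the proliferation marker Ki-67, read 5.84 and 6.85 at P0, against 9.23, 9.55 and 8.72 at E12.5 (adjusted p = 0.00171), Nusap1, a spindle protein, 3.51 and 3.45 at P0, against 6.56, 6.88 and 6.62 at E12.5, and Ube2c, the ubiquitin-conjugating enzyme of the anaphase-promoting complex, 5.06 and 5.13 at P0, against 7.69, 7.54 and 6.52 at E12.5. For each of these the highest P0 sample lay below the lowest E12.5 array. Cenpe, a kinetochore motor, was not called (-0.78 ± 0.29, adjusted p = 0.0569). The other 9 mitosis genes of the list, and 7 of the 14 progenitor genes with a probe set, did not pass the filter on low values and are not counted. Genes low at P0, such as Nes, passed it only through E12.5. The counts and medians of both lists therefore lean towards falls by construction. Both group medians lay below that of all genes under every scaling tried.

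Promoter windows are shown for Mki67 and Ube2c, which both fell. Of 17 mitosis genes with a RefSeq window (250 bases before to 50 after the annotated start, GRCm38.p6), some of which did not pass the filter on low values, 12 held the letters TTTGAA on either strand, the core of the cell cycle homology region, against 20.2% of all 27025 genes with a window. CCAAT on either strand was in 15 of 17, against 41.1% of all genes. Both are short, and a match is a description of these letters only. The windows of Mki67 (chr7:135716330-135716629, minus strand) and Ube2c (chr2:164769679-164769978, plus strand) follow in lower case, with CCAAT or ATTGG and TTTGAA or TTCAAA in capitals.
Mki67: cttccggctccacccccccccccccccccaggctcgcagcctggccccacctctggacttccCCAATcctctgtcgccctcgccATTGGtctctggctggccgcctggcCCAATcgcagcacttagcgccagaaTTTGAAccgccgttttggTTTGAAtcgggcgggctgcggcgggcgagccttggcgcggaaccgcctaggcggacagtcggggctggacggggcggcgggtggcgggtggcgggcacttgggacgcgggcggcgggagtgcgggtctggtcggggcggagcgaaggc
Ube2c: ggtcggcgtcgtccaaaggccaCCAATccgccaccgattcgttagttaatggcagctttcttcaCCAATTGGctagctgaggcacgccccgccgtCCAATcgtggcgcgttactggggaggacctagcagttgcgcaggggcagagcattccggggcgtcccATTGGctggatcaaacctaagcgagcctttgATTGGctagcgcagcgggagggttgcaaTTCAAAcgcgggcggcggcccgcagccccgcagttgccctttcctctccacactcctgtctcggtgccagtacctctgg
In Mki67 the 2 TTTGAA matches begin 116 and 98 bases before the start, and in Ube2c the 1 TTCAAA match begins 29 bases before it. In Ube2c a CCAAT and an ATTGG share 2 letters in the run of capitals that begins 186 bases before the start.

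Replication genes did not follow as a group. Of 12 tested, 5 fell and 2 rose (median -0.84). Mcm2, a helicase subunit, fell by 2.54 and E2f1, a factor of the G1 to S step, by 2.92, while Mcm6, another subunit of the same helicase, read 8.71 and 8.96 at P0, against 5.80, 5.64 and 5.79 at E12.5 and rose 8.52-fold (adjusted p = 2.90e-05). Cdt1, a licensing factor, rose 4.25-fold. Pcna, the sliding clamp, was not called, at 10.42 at P0 against 10.42 at E12.5 (adjusted p = 0.98).

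Genes of neurogenesis and newborn neurons fell in 14 of 18 cases, with 2 rises (median -1.95). Nhlh1, a helix-loop-helix factor of newly born neurons, read 2.84 and 2.86 at P0, against 6.86, 7.77 and 7.497 at E12.5 (23.1-fold lower, adjusted p = 0.000103), and Neurog2, a proneural factor, 2.98 and 3.67 at P0, against 6.07, 6.79 and 6.48 at E12.5 (8.71-fold lower). Sox11 and Sox4, factors of immature neurons, fell but remained bright: Sox11 averaged 11.63 ± 0.42 at P0 and 14.13 ± 0.10 at E12.5 and Sox4 11.57 ± 0.29 at P0 and 13.76 ± 0.17 at E12.5 (SD, n = 2 and 3). Dll3, a Notch ligand, had a difference of -2.65 ± 0.10. The 2 rises were Btg2, an antiproliferative gene (1.83 ± 0.20), whose E12.5 level lay among the controls, and Gadd45g (0.48 ± 0.11). Cdkn1c, a cell cycle inhibitor, and Ebf2, a helix-loop-helix factor, were not called.

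Fetal RNA-binding and HMGA chromatin genes fell without exception among the 7 tested, with a median of -3.07, the lowest of the neural lists with at least 5 tested genes, and all 7 were also lower as deposited. Igf2bp1, an mRNA-binding protein of fetal tissues, read 2.52 and 2.52 at P0, against 5.37, 5.94 and 5.48 at E12.5, at least 8.38-fold lower (adjusted p = 0.000109), and its relative Igf2bp3 6.18 and 6.06 at P0, against 8.93, 9.50 and 9.46 at E12.5. Hmga2, a chromatin protein of fetal stem cells, read 5.16 and 5.21 at P0, against 9.21, 8.89 and 8.51 at E12.5, and Hmgb2, a high mobility group protein of dividing cells, had a difference of -3.87 ± 0.27. Lin28b, which blocks maturation of let-7 microRNAs, fell by 2.07 on the log2 scale. Of neuronal RNA-binding and splicing regulators, 13 of 22 fell and 3 rose (median -0.78). Celf3 read 3.74 and 3.75 at P0, against 8.08, 8.09 and 7.81 at E12.5 (19-fold lower), whereas Celf6, of the same family, read 6.46 and 6.46 at P0, against 2.74, 2.71 and 2.73 at E12.5 (at least 11.8-fold higher). Ptbp1, the splicing repressor of non-neuronal cells, fell by 2.16, Mbnl2, a splicing factor tied to maturation, rose 4.17-fold, and Rbfox3, the neuronal antigen NeuN, was not called, at 11.63 at P0 against 11.72 at E12.5 (adjusted p = 0.487).

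Chromatin regulators moved in both directions. Of 12 DNA methylation and Polycomb genes, 5 fell and 3 rose. Ezh2, the methyltransferase of Polycomb complex 2, read 6.08 and 6.89 at P0, against 10.39, 10.89 and 10.40 at E12.5 (16.9-fold lower, adjusted p = 0.00017), and Ezh1, its paralog in postmitotic cells, rose 2.08-fold. Suz12 and Eed, core subunits of that complex, were not called. Among subunits of the BAF remodelling complex, Actl6a, the form of progenitors, read 5.75 and 6.03 at P0, against 7.45, 7.98 and 7.34 at E12.5 and Actl6b, the form of neurons, 8.80 and 8.80 at P0, against 8.09, 7.998 and 8.53 at E12.5, so that their differences had opposite signs (adjusted p = 0.00169 and 0.0351). This depended on the scaling: as deposited Actl6a also had a positive difference (1.04), under median and interquartile range scaling Actl6b had a negative one (-1.47), and Actl6b was not called with all 17 arrays normalized together or without any 1 of 4 samples. Of the 8 BAF subunits tested, 5 were not called.

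The machinery that makes and releases the inhibitory transmitter rose throughout: all 8 tested genes of GABA and glycine synthesis and transport were called higher, against 40.7% of all genes, with a median of 1.67. Gad1 and Gad2, the glutamate decarboxylases that make GABA, read 12.16 and 12.28 at P0, against 11.66, 11.39 and 11.24 at E12.5, and 14.10 and 14.10 at P0, against 12.88, 12.69 and 12.61 at E12.5 (adjusted p = 0.00655 and 0.000335). Slc32a1, the vesicular transporter of GABA and glycine, read 13.21 and 13.01 at P0, against 11.10, 10.89 and 11.46 at E12.5, a 3.9-fold rise. Slc6a5, the neuronal glycine transporter GlyT2 that marks glycinergic cells, read 12.18 and 11.17 at P0, against 8.95, 9.04 and 9.33 at E12.5 (5.95-fold, adjusted p = 0.00126). Slc6a9, the glycine transporter GlyT1, rose 14.7-fold and Slc6a11, a GABA transporter known best from astrocytes, 9.44-fold. Abat, the enzyme that degrades GABA, had the smallest rise of the list (0.44 ± 0.14). The list median, however, lay below that of all genes under median and interquartile range scaling.

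GABA receptor subunits rose in 9 of 12 tested genes and fell in none (median 2.65). Gabrb1, a beta subunit, read 10.48 and 10.15 at P0, against 5.58, 5.19 and 5.88 at E12.5 (27.2-fold), and Gabra2, an alpha subunit, 9.84 and 9.25 at P0, against 6.29, 6.28 and 6.08 at E12.5. The subunits thus differed in their course: alpha 2, 3, 4 and 5 and gamma 1 and 3 rose by between 1.91 and 3.37 on the log2 scale, and Gabrb2 and the metabotropic subunit Gabbr1 were not called (-0.11 ± 0.16 and 0.04 ± 0.10). For glycine receptors, Glrb, the beta subunit that binds gephyrin, read 11.33 and 11.05 at P0, against 7.87, 6.87 and 7.52 at E12.5 (13.7-fold, adjusted p = 0.000275), Glra2, the fetal alpha subunit, rose 2.11-fold, and Glra1, the adult alpha subunit, was not called at 10.81 ± 0.42 at P0 and 10.64 ± 0.03 at E12.5 (SD, n = 2 and 3).

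Slc12a5, which encodes the chloride exporter KCC2, read 13.71 and 13.48 at P0, against 11.17, 11.09 and 11.42 at E12.5, a 5.15-fold rise with no overlap (adjusted p = 0.000106). Slc12a2, the chloride importer NKCC1, read 8.80 and 8.91 at P0, against 9.22, 9.18 and 8.998 at E12.5 and was not called (-0.28 ± 0.12, adjusted p = 0.0799). Gphn, the gephyrin scaffold of inhibitory synapses, rose 1.55-fold and Nlgn2, the neuroligin of inhibitory synapses, 1.71-fold, neither being called over the mean of its probe sets. Under median and interquartile range scaling, which placed the median of all genes at -2.15, the difference of Slc12a5 was -1.999.

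**Figure D3:**
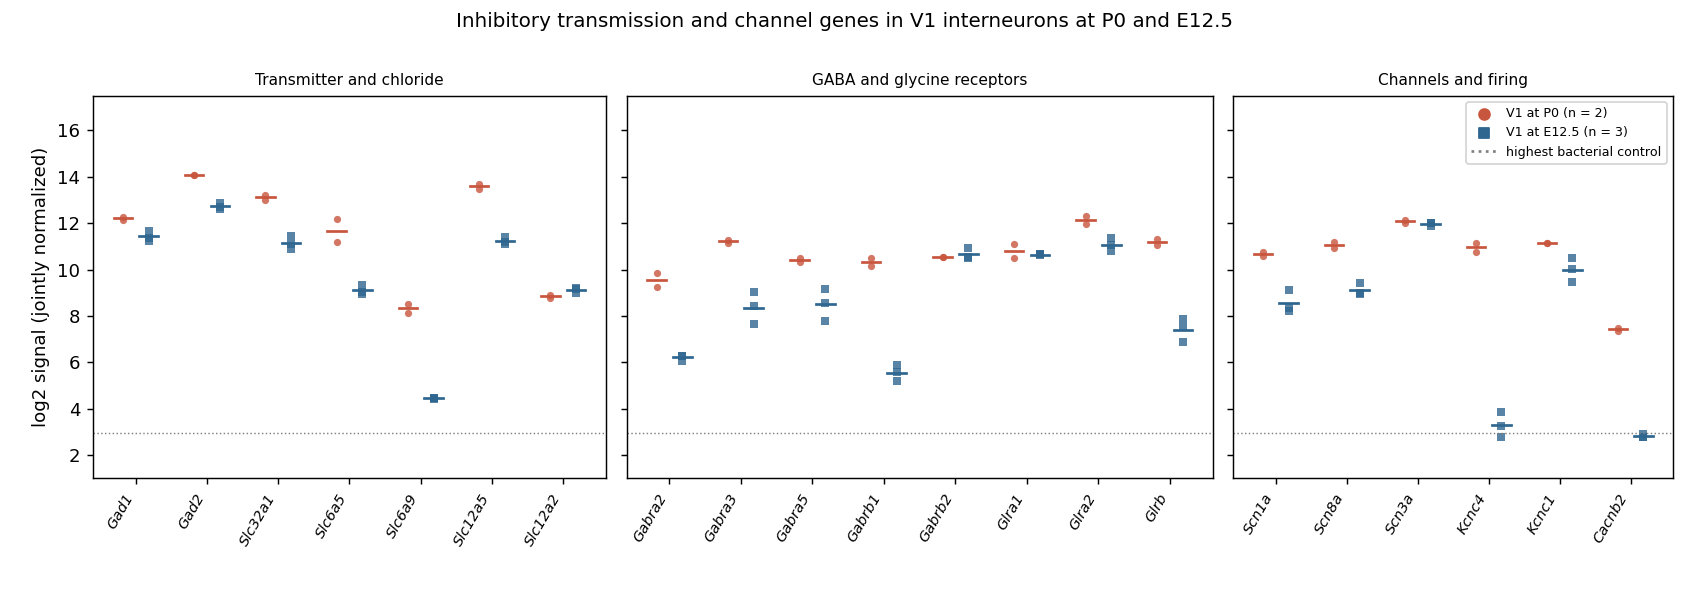
Log2 signal after joint normalization of inhibitory transmission and channel genes in each V1 sample, P0 (red circles, n = 2) left of E12.5 (blue squares, n = 3); bars are group means and the dotted line is the highest bacterial control value. Slc12a5 reads 13.71 and 13.48 at P0 against 11.09 to 11.42 at E12.5, while Slc12a2, Gabrb2, Glra1 and Scn3a overlap or nearly overlap.

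Receptors for glutamate, which excites V1 neurons, changed unevenly. NMDA receptor genes rose in 3 of 4 tested: Grin3a, a modulatory subunit of young neurons, read 10.84 and 10.62 at P0, against 6.37, 5.50 and 6.68 at E12.5 (23.4-fold), Grin1, the obligatory subunit, at least 5.93-fold from an E12.5 level among the controls, and Grin2d 2.37-fold. Grin2b was not called (0.48 ± 0.23). All 5 tested metabotropic receptors rose (median 1.84), Grm7, a presynaptic receptor, the most (9.45-fold, adjusted p = 0.00246). AMPA and kainate subunits were split, 3 rising and 2 falling of 8. Gria1 rose 2.28-fold on its brightest probe set but had a difference of -0.07 over the mean of all its probe sets, and Gria2 was not called (0.42 ± 0.16). Grik1 rose 3.32-fold on its brightest probe set and was not called over the mean of its probe sets. Grik3 fell 3.41-fold, reading 10.24 and 10.14 at P0, against 11.91, 12.19 and 11.78 at E12.5.

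Voltage-gated channel genes were higher at P0 more often than lower. Of 7 sodium channel genes, 5 rose and none fell (median 1.21). Scn1a and Scn8a, channels of the axon initial segment in mature neurons, read 10.75 and 10.59 at P0, against 9.12, 8.22 and 8.33 at E12.5, and 11.19 and 10.95 at P0, against 9.41, 8.96 and 8.98 at E12.5, whereas Scn3a, the embryonic form, was not called, at 12.09 at P0 against 11.97 at E12.5 (adjusted p = 0.352). Scn2b, a beta subunit, rose 9.29-fold, reading 9.55 and 7.63 at P0, against 5.46, 5.14 and 5.53 at E12.5. Of 27 potassium and HCN channel genes, 16 rose, all at least 2-fold, 2 fell and 9 were not called (median 1.53). Kcnc4, a Kv3 channel (Kv3.4), read 11.14 and 10.78 at P0, against 3.85, 2.80 and 3.28 at E12.5, the largest rise of the list (200.5-fold, with 1 of the 3 E12.5 arrays at the control level). Kcna2, a channel of axons, rose at least 16.8-fold from the control level. Kcnc1, another Kv3 channel, rose 2.25-fold, and Kcnq3, an M-current subunit, 4.57-fold.

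Calcium channel genes rose in 5 and fell in 2 of 14 tested, so that 35.7% rose, against 40.7% of all genes. Cacnb2, a beta subunit, read 7.48 and 7.37 at P0, against 2.80, 2.93 and 2.79 at E12.5 (at least 22.6-fold) and Cacna1g, a T-type channel, rose at least 10.1-fold from the control level. Cacna1b, the N-type channel of nerve terminals, rose 1.69-fold, and Cacna1a, the P/Q-type channel, was not called on its brightest probe set (0.14 ± 0.11). Over the mean of all its probe sets Cacna1a was called higher (1.32, limma adjusted p = 0.00068). The alpha2delta subunits were divided: Cacna2d2 rose 3.16-fold, Cacna2d1 fell 6.38-fold and Cacna2d3 was not called.

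Synaptic vesicle and release genes formed one of the most even groups, with 30 of 35 rising and 2 falling (median 1.76), above the median of all genes under every scaling. Vamp1 and Syngr3 led. Stx1a, a plasma membrane SNARE, read 8.21 and 8.21 at P0, against 2.22, 2.23 and 2.26 at E12.5 (at least 39.5-fold), and Syt2, the fast calcium sensor of many inhibitory terminals, 10.49 and 9.73 at P0, against 5.86, 5.76 and 6.89 at E12.5 (15.4-fold). Snap25 and Syt1, already bright at E12.5, rose less: Snap25, a SNARE, read 14.89 and 14.82 at P0, against 14.12, 13.90 and 14.06 at E12.5, and Syt1, the calcium sensor, 12.01 and 11.89 at P0, against 11.12, 11.13 and 11.05 at E12.5. Syp, the vesicle protein synaptophysin, rose 3.38-fold on its brightest probe set and was not called over the mean of its probe sets. The falls were in scaffolds of the active zone, Bsn (-0.88 ± 0.15) and Rims2 (-0.68 ± 0.12), while Pclo, the relative of Bsn, was not called and Rims1 rose 3.9-fold. Neither fall was called over the mean of all probe sets, and both differences were positive as deposited (1.18 and 1.43). Under median and interquartile range scaling the differences of Snap25, Syt1, Syp and Rims1 were negative (-5.49, -2.89, -2.84 and -0.31).

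Synaptic adhesion and excitatory scaffold genes were less uniform, with 13 rising and 6 falling of 27 (median 0.57, below that of all genes under median and interquartile range scaling). Dlgap2, a postsynaptic scaffold, read 8.12 and 7.18 at P0, against 2.37, 2.10 and 3.17 at E12.5 (at least 25.2-fold) and Lgi1, a secreted synaptic protein, 9.72 and 9.76 at P0, against 7.26, 5.22 and 6.34 at E12.5 (11-fold). The neurexins Nrxn3 and Nrxn2 differed on their brightest probe sets. Nrxn3 rose 2.04-fold (but -0.20 on the log2 scale over the mean of its probe sets). Nrxn2 fell 2.33-fold and was not called over the mean of its probe sets. Homer3 fell 5.2-fold and Dlg4, the scaffold PSD-95, was not called (0.41 ± 0.22). Among cadherins and protocadherins 10 of 18 rose and 3 fell, Cdh13 rising 4.63-fold and Cdh2, N-cadherin, falling 2.55-fold.

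Genes of the growing axon spanned a narrow range of differences. Of 25 growth cone and young neuron genes, 9 rose, 5 fell and 11 were not called (median 0.24), and their differences ran from -0.72 to 2.58. The direction of the group depended on the scaling: its median lay below that of all genes as deposited and after median and interquartile range scaling. Gap43, the growth cone protein, rose 3.23-fold, reading 13.45 and 13.17 at P0, against 11.77, 11.18 and 11.90 at E12.5, Dcx, doublecortin, fell by 0.72 on the log2 scale at 13.78 at P0 against 14.50 at E12.5, and Tubb3 was not called. Cntn2, the contactin of growing axons, rose 6-fold on its brightest probe set and was not called over the mean of its probe sets (0.95). Of 12 neurofilament, initial segment and node genes, 8 rose and 3 fell (median 1.01). Nefh, the heavy neurofilament of mature axons, read 9.21 and 8.08 at P0, against 4.28, 2.72 and 3.88 at E12.5 (32.4-fold, with 1 of the 3 E12.5 arrays at the control level, adjusted p = 0.000874), Nefl 14.004 and 13.87 at P0, against 12.57, 12.44 and 12.71 at E12.5 and Nefm 12.42 and 12.06 at P0, against 11.48, 11.34 and 11.48 at E12.5. Ina, the early partner of the neurofilaments, fell by 1.07 on the log2 scale. Cntn1, a contactin of nodes and synapses, rose 16.5-fold, and Ank3, ankyrin G, fell by 1.30 on its brightest probe set.

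Axon guidance receptors fell more often than they rose, 13 against 9 of 25 (median -0.45). Epha3, an ephrin receptor, read 5.80 and 5.94 at P0, against 10.54, 10.10 and 9.89 at E12.5, the largest fall (19.8-fold, adjusted p = 5.06e-05). Robo2, a Slit receptor, read 6.22 and 6.54 at P0, against 9.51, 9.78 and 9.03 at E12.5 and Dcc, a netrin receptor, 10.75 and 10.80 at P0, against 12.51, 13.03 and 12.33 at E12.5, both lower at P0 without overlap, and Robo1 fell by 1.05 on the log2 scale. The rises included Unc5d, a repulsive netrin receptor (5.51-fold), and Plxna4, a semaphorin coreceptor (3.1-fold). Among 16 ligands, 3 rose and 5 fell: Sema3e rose 5.88-fold and Draxin, a repellent of commissural axons, read 6.56 and 7.05 at P0, against 10.36, 10.33 and 10.57 at E12.5 (12.3-fold lower).

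Neuropeptide and dense-core vesicle genes had the second highest median of the neural lists with at least 5 tested genes (3.19), and 18 of 19 rose. Vgf, a granin-like precursor, read 10.22 and 9.40 at P0, against 2.35, 2.39 and 2.34 at E12.5, at least 119.6-fold higher (adjusted p = 1.65e-05). Penk, the enkephalin precursor, read 9.90 and 9.72 at P0, against 2.77, 2.75 and 2.94 at E12.5 (at least 118-fold), Nts, neurotensin, 9.05 and 9.81 at P0, against 3.31, 2.35 and 2.59 at E12.5 (at least 84.8-fold), and Crh, corticotropin-releasing hormone, 9.48 and 9.53 at P0, against 3.17, 3.32 and 3.13 at E12.5 (79-fold). In these genes each E12.5 array lay near or among the bacterial controls and both P0 samples were well above them. Scg2, secretogranin II, read 11.93 and 12.11 at P0, against 7.79, 6.16 and 7.17 at E12.5 (31.5-fold), Chgb, chromogranin B, 13.57 and 13.58 at P0, against 12.13, 11.81 and 12.36 at E12.5 (2.77-fold), and Sst, somatostatin, 8.38 and 8.43 at P0, against 5.66, 7.33 and 6.29 at E12.5 (3.93-fold). Pcsk1, a prohormone convertase, rose at least 7.86-fold, and Pam, the enzyme that amidates peptides, was not called (-0.12 ± 0.28). Cck, Vip and Nmu did not pass the filter on low values and are not counted. Genes low at E12.5, such as Vgf, passed it only through P0. The count and median of this list therefore lean towards rises by construction.

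A full cyclic AMP response element, TGACGTCA, was present in the promoter windows of 5 of 19 peptide genes with a window (Scg2, Chgb, Sst, Pcsk1 and Cartpt), against 2.03% of all genes with a window. The letters read the same on both strands, and they are in capitals in the 3 windows below, shown because these 3 genes rose. The windows are Scg2 at chr1:79439977-79440276 (minus strand), Chgb at chr2:132781392-132781691 (plus strand) and Sst at chr16:23890795-23891094 (minus strand), from RefSeq on GRCm38.p6.
Scg2: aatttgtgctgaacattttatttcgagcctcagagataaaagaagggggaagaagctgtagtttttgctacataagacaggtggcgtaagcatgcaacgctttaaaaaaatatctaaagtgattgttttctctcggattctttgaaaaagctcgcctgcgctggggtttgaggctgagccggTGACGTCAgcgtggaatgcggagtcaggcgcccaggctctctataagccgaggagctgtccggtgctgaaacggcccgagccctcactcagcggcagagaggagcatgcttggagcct
Chgb: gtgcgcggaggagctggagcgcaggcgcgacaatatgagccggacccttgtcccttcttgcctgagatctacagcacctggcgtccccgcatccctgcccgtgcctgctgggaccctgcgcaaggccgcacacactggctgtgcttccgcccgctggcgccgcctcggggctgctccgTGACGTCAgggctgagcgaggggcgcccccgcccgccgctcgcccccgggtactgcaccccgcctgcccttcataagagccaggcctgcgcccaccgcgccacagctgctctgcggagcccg
Sst: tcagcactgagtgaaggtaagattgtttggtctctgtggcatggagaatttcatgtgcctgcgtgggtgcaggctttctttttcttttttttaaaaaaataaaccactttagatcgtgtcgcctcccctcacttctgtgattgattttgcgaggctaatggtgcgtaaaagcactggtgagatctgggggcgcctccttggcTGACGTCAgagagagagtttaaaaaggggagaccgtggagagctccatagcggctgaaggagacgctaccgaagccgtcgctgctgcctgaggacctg
The element begins 68 bases before the start in Scg2, 72 in Chgb and 48 in Sst. No other peptide gene with a window held these letters, although 18 of 19 tested peptide genes rose.

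Calcium-binding and calmodulin pathway genes rose in all 13 tested cases, with the highest median of those lists (3.48). Calb2, calretinin, read 9.17 and 9.16 at P0, against 2.01, 2.02 and 2.05 at E12.5, at least 76.5-fold higher (adjusted p = 7.61e-06), Ncald, neurocalcin delta, 11.83 and 11.85 at P0, against 5.89, 4.83 and 6.30 at E12.5 (72-fold), and Camk4, a calmodulin-dependent kinase, 12.32 and 12.29 at P0, against 9.29, 7.94 and 8.67 at E12.5 (12.8-fold). Calb1, calbindin, a marker of Renshaw cells, read 8.80 and 8.36 at P0, against 8.06, 8.19 and 7.74 at E12.5, the smallest rise of the list (1.5-fold, adjusted p = 0.0476). It was not called on ranks, with all 17 arrays, without a filter, with a background floor, with an intensity trend, over the mean of its probe sets (0.15), or without any 1 of 4 samples. Pvalb, parvalbumin, and Nrgn did not pass the filter on low values, and Calb2, low at E12.5, passed it only through P0.

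Receptors for modulators rose in 15 and fell in 4 of 23 tested genes (median 1.61), out of 35 with a probe set. The others did not pass the filter on low values. Genes low at E12.5, such as Htr1b, passed it only through P0, so these counts lean towards rises by construction. Htr1b, a serotonin receptor, read 9.39 and 8.75 at P0, against 2.02, 2.07 and 2.26 at E12.5, at least 71.6-fold higher, and Htr2c, another, 10.48 and 10.52 at P0, against 5.28, 5.49 and 4.70 at E12.5 (40.6-fold). The opioid receptor genes Oprd1 and Oprm1 rose from the control level, at least 29.1-fold and 12.8-fold. Falls included nicotinic subunits, Chrna5 (6.72-fold) and Chrna4 (1.89-fold), and Cnr1, the cannabinoid receptor (2.26-fold), while Chrna7 rose 2.22-fold.

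Glucose uptake and glycolysis genes rose in 14 of 18 tested and fell in none (median 1.65, above all genes under every scaling). Aldoc led, and Hk2, a hexokinase, rose at least 11.7-fold, Pfkp, a phosphofructokinase, 7.03-fold, Ldha, a lactate dehydrogenase subunit, 5.6-fold, and Eno2, the neuronal enolase, 5.52-fold, reading 14.14 and 14.03 at P0, against 11.76, 11.48 and 11.62 at E12.5. Slc2a1 and Pkm, a glucose transporter and pyruvate kinase, were not called (-0.42 ± 0.20 and 0.04 ± 0.12). Nuclear genes of oxidative phosphorylation rose in 54 of 71 tested and fell in 1, by less (median 0.69), and their median lay below that of all genes as deposited and after median and interquartile range scaling. Cox6b2 and Cox8a, cytochrome oxidase subunits, led with at least 33.2-fold and 12.3-fold, and Ndufa12 of complex I fell by 0.62. Cytosolic ribosomal protein genes showed no common direction, with 14 rising, 11 falling and 32 not called of 57 (median 0.03). Cholesterol synthesis genes were likewise split, 3 rising and 4 falling of 19.

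Trophic factors and their receptors rose in 8 and fell in 4 of 15 tested genes. Ntrk2 and Ntrk3, receptors for BDNF and NT-3, rose 2.07-fold and 2.22-fold, but over the mean of its probe sets Ntrk2 had a difference of -0.32. Ngfr, the p75 receptor, read 8.63 and 8.47 at P0, against 10.20, 10.91 and 10.48 at E12.5 (3.96-fold lower). Of 16 apoptosis genes, 7 rose (43.8%) and 5 fell (31.2%), near the shares of all genes (40.7% and 32.7%). Bcl2, which protects cells, rose 3.04-fold, and Bcl2l11 (Bim) and Trp53 (p53), which promote death, fell 3.73-fold and 5.63-fold. Bax, another death effector, rose 1.99-fold. Of 14 imprinted growth genes, 2 rose and 4 fell. H19 read 4.66 and 3.31 at P0, against 10.18, 8.69 and 7.85 at E12.5 (30.3-fold lower, adjusted p = 0.00297) and Igf2 7.01 and 5.60 at P0, against 11.72, 9.67 and 7.47 at E12.5 (not called, adjusted p = 0.064), with the highest value of both in E12.5 replicate 1, the array with the highest fibroblast collagens. Dlk1 fell 8.26-fold. In the neural matrix Vcan, versican, read 8.87 and 8.62 at P0, against 12.26, 12.28 and 12.06 at E12.5 (11-fold lower), whereas Tnr, tenascin R, and Hapln1, a link protein of perineuronal nets, rose 9.01-fold and 5.23-fold.

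Of 9 immediate early and stress genes tested, 2 rose and 1 fell. Hspa1b and Hspa1a, heat shock proteins, read 8.88 and 8.81 at P0, against 4.32, 4.45 and 5.64 at E12.5, and 7.97 and 8.06 at P0, against 4.18, 4.14 and 4.30 at E12.5, and Fos and Egr1, induced by activity or by tissue handling, were not called (0.86 ± 0.54 and 3.02 ± 1.10). Egr3, of the same family as Egr1, fell by 1.07. Cells of both ages were sorted, and the part of handling in these values was not tested.

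Whether V1 changes differed from those of dI4 neurons over the same ages was tested as the V1 change minus the dI4 change, over 12 arrays normalized together. This difference was called for 591 of 11958 genes (4.94%), 269 positive (2.25%) and 322 negative (2.69%), and 507 of the 591 were also called in V1. The count depended on single libraries and was 313 without V1 P0 replicates 1 and 3, 381 without dI4 E12.5 replicate 1 and 1208 without dI4 E12.5 replicate 2. Cyp1b1, a cytochrome P450, changed by 6.19 in V1 and 0.28 in dI4, a difference of 5.91 ± 0.33 (SE, adjusted p = 2.67e-05). Irs4, an insulin receptor substrate, changed by 5.94 in V1 and 0.11 in dI4 (adjusted p = 1.41e-06), and Htr1b by 6.93 in V1 and 1.69 in dI4 (adjusted p = 8.04e-06). Sncg, gamma-synuclein, rose in V1 and fell in dI4 (3.03 and -2.15), and Rassf4 changed by 5.02 in V1 and 0.55 in dI4. Crabp2, a retinoic acid carrier, fell less in V1 (-2.74) than in dI4 (-7.19).

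In the other direction, Nid1, a basement membrane protein, fell in V1 (-3.07) and rose in dI4 (4.52), a difference of -7.59 ± 0.81 (adjusted p = 0.000898). In V1 at E12.5 Nid1 read 8.68, 6.87 and 6.26, highest in replicate 1, the array with the highest fibroblast collagens. The 3 tested meningeal fibroblast markers, none called in V1, had median changes of -4.21 in V1 and 2.05 in dI4. The part of such cells in the Nid1 difference was not tested. Aqp4, the water channel of astrocytes, rose by 3.40 in V1, where 2 of the 3 E12.5 arrays lay at the control level, and 9.68 in dI4, and Slc4a4, a bicarbonate transporter, by 2.79 and 9.35 in V1 and dI4. Mt2, metallothionein 2, rose by 2.76 in V1 and 7.92 in dI4, Slc6a17, a vesicular amino acid transporter, by 2.12 and 7.76, and Tcim fell in V1 (-4.16) against 1.91 in dI4. Of the 16 V1 subset factors, 5 had a positive and 3 a negative difference: Sp8 and Nr5a2, which rose in V1, had differences of 3.04 and 1.32, and Lmo3, not called in V1 and higher at P0 in dI4, one of -5.57. The difference was called for 4.94% of all genes, and for none of the 5 V1 lineage factors or the 7 fetal RNA-binding genes. At that share, lists this small will often hold no call, so equal change in the classes is not shown. The median change of the lineage factors was -1.88 in V1 and -3.28 in dI4, and that of the fetal genes -3.07 and -2.79. For En1 the difference was -0.13 ± 0.28 (adjusted p = 0.831). Calb2 rose more in V1 by 2.47 and Calb1 less, by -4.78. Of the transmitter genes, 2, Slc6a5 and Gad2, had a positive difference (1.86 and 0.97) and 3 a negative one, among them Slc6a9 and Slc6a11 (-1.55 and -3.77).

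**Figure D4:**
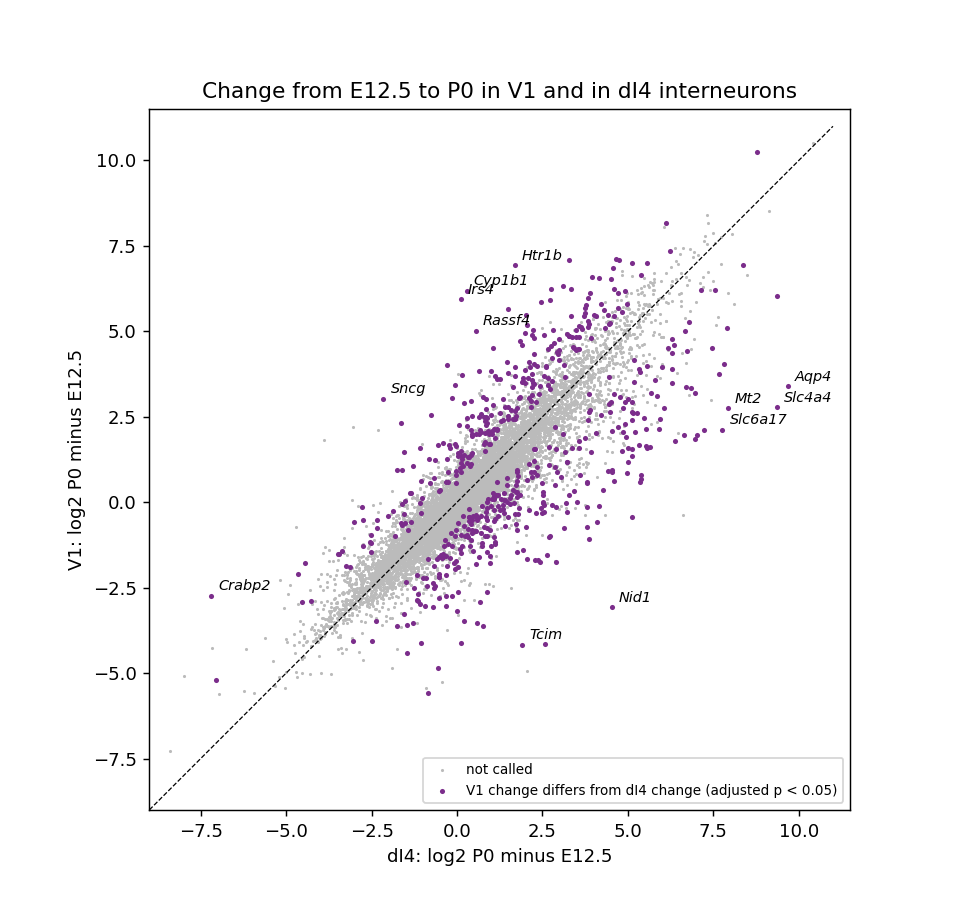
Log2 change from E12.5 to P0 in V1 (vertical axis) and in dI4 interneurons (horizontal axis) for 11958 genes after joint normalization of 12 arrays; purple points are the 591 genes whose change differed between the classes and the dashed line marks equal change. Cyp1b1, Irs4 and Htr1b lie above the line and Nid1, Tcim, Aqp4 and Slc4a4 below it.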

How the data were processed

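Gene expression of FACS-sorted spinal interneurons was measured on Affymetrix arrays, and the 6 V1 arrays at P0 and E12.5 and the 6 dI4 arrays of the same ages were used. The deposited values are log2 signals; RMA, GCRMA and Partek 6.6 are named in the submitters' processing notes, without their order. The authors' deposited table also holds fold scores and p-values of V1 against dI4 within an age, made by the authors and not used here. Probe sets were named through the platform annotation, and those with 1 symbol (37826 of 45101) gave 20678 genes, each by its brightest probe set. Those marked cross-hybridizing were set aside where a gene had another.

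V1 arrays were quantile normalized together, P0 replicates 1 and 3 were averaged, and genes above the array median on at least 2 of 5 samples (11958) were tested with limma 3.58.1 in R 4.3.3 (lmFit, eBayes), with Benjamini-Hochberg adjustment over all of them, at 0.05. The same genes were tested for the V1 change minus the dI4 change over 12 arrays. The fit was also run on simulated arrays with few changed genes and no shift between the ages. That run therefore cannot test the joint normalization of these data. Arrays give no read depth, and the few arrays limit the precision.

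Some genes are not reported here. Genes named are En1, the 12 largest called changes each way without overlap, the 6 largest interaction calls each way, and list members of known role or outlying value. The members and lists were chosen with earlier results of these data known. Replicate numbers did not pair the ages: deviations from group means of same-numbered V1 arrays correlated at 0.012, 0.13 and 0.16. Alternatives covered scaling, filter, background floor, probe set choice, variance trend and left-out samples. Promoter windows are from RefSeq (GRCm38.p6).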

Additional observations from a re-analysis of the deposited data

Results flagged for a closer look

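The genes below changed between E12.5 and P0 by a different amount in V1 than in dI4 interneurons, by limma's test of that difference (adjusted p under 0.05 over all 11958 genes). Values are the V1 change minus the dI4 change on the log2 scale, over 12 arrays.

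More positive changes in V1 were found for Cyp1b1 5.91, Irs4 5.82, Htr1b 5.25, Sncg 5.18, Rassf4 4.47, Crabp2 4.46, Hapln1 3.96 and Crh 3.48. Further values were Cntn2 3.33, Sp8 3.04, Nefh 2.96, Onecut2 2.58, Calb2 2.47, Hoxa5 2.43 and Cox6b2 2.14. Others were Lynx1 2.07, Igfbpl1 1.88, Slc6a5 1.86, St18 1.80, Oprd1 1.80, Kcna2 1.46 and Thy1 1.45. They included Dcc 1.39, Nr5a2 1.32, Hoxb5 1.16 and Gad2 0.97. Among these, Cyp1b1, Irs4 and Htr1b changed by more in V1 than in dI4, and Sncg rose in V1 and fell in dI4.

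More negative changes in V1 were found for Penk -1.42, Slc12a5 -1.44, Slc6a9 -1.55, Ezh2 -1.56, Gria1 -2.04, Draxin -2.14 and Vim -2.35. Further negative values were Cacna2d1 -2.67, Hoxc10 -2.83, Vcan -3.67, Slc6a11 -3.77, Fos -4.11, Zic1 -4.73, Calb1 -4.78 and Mt2 -5.17. Others were Lmo3 -5.57, Slc6a17 -5.64, Tcim -6.07, Aqp4 -6.28, Slc4a4 -6.57 and Nid1 -7.59. Aqp4, an astrocyte gene, and Slc4a4 rose in both classes and by more in dI4, and what this owes to other cells in the sorts was not tested. Nor was it tested for Nid1, whose highest V1 value at E12.5 was in replicate 1, the array with the highest fibroblast collagens.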

How the results depend on the processing

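Counts of genes called in V1 moved with the scaling and the filter. Of 4861 higher and 3915 lower calls, values as deposited gave 10480 and 550, and median and interquartile range scaling gave 2179 and 8482. Without a filter 14772 genes were called, 8416 of them lower, and with an upper quartile filter 4782, with 2692 higher and 2090 lower; these 2 settings test more and fewer genes. Values as deposited kept 5408 of the 8776 calls and reversed 2956. Ranks within each array kept 8508 and reversed none, and normalizing all 17 arrays together kept 7762 and reversed none. Leaving out 1 sample gave 7507 to 8550 calls, 4067 to 4771 higher and 3327 to 3779 lower. A filter on deposited levels of at least 4, chosen after seeing the data, gave 8187 calls.

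The count of genes whose change differed between V1 and dI4, 591 with 269 positive and 322 negative, was less stable. With V1 P0 replicates 1 and 3 entered separately it was 1087 (467 and 620), with the replicate number as a block 945 (405 and 540), and with all 17 arrays together 336 (132 and 204). Without 1 sample it ranged from 313 to 1208, with 155 to 455 positive and 158 to 753 negative. It was 1208 without dI4 E12.5 replicate 2, 381 without dI4 E12.5 replicate 1 and 313 without V1 P0 replicates 1 and 3. Positive calls were 168 without dI4 E12.5 replicate 1 and 174 without dI4 E12.5 replicate 3, and negative calls were 211 without V1 P0 replicate 2 and 209 without dI4 P0 replicate 2. In V1 the replicate block gave 9409 calls; the replicate numbers mark no pairing that every pair's deviations bear out, so the block is given only here. The cause of these shifts was not tested.

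Directions of single genes turned under 3 settings. As deposited, log2 differences that turned were Actl6a 1.04, Ank3 0.49, Bsn 1.18, Cdh2 0.39, Chrna4 1.25, Cnr1 0.91, Egr3 1.12, En1 0.53 and Foxp2 0.068. Further values were Grik3 0.12, Ina 0.13, Lhx1 0.32, Lhx5 0.19, Ndufa12 1.08, Neurod2 0.88, Neurod6 0.33 and Ngfr 0.17. Others were Nrxn2 1.07, Onecut2 0.017, Otp 0.52, Ptbp1 0.41, Rims2 1.43, Robo1 0.55, Ube2c 0.62 and Zfhx4 0.31. After median and interquartile range scaling they were Abat -2.69, Actl6b -1.47, Bax -0.75, Bcl2 -0.81, Cacna1b -4.20, Cacna2d2 -3.07, Calb1 -1.34, Cdh13 -0.85 and Chgb -3.26. Further values were Chrna7 -1.16, Eno2 -2.27, Ezh1 -0.028, Gad1 -3.17, Gad2 -3.87, Gap43 -2.72 and Glra2 -2.72. Others were Gphn -2.38, Gria1 -1.67, Grik1 -1.34, Grin2d -1.93, Kcnc1 -2.01, Ldha -0.63, Nefl -3.74 and Nefm -3.15. There were also Nlgn2 -3.04, Nr5a2 -1.81, Nrxn3 -2.78, Ntrk2 -2.55, Ntrk3 -1.25, Pfkp -0.995, Rims1 -0.31 and Scn1a -0.47. The same setting gave Scn8a -0.92, Slc12a5 -1.999, Slc32a1 -2.17, Slc6a17 -0.81, Slc6a5 -0.47, Snap25 -5.49 and Sp8 -1.08. The rest were Syp -2.84 and Syt1 -2.89. The mean of all probe sets kept 7694 of the 8776 calls and reversed 538. Of genes named here, Bsn, Calb1, Cntn2, Gphn, Grik1, Nlgn2, Nrxn2, Rims2 and Syp lost their call, and those turned were Gria1 -0.074, Nrxn3 -0.20 and Ntrk2 -0.32. Another 11, Cacna1a among them, were called under this setting and not in the main fit. With all 17 arrays together Abat, Actl6b, Btg2, Calb1, Foxd3, Gadd45g, Ntrk3, Otp, Rims2 and Ube2c were not called, and leaving out 1 V1 sample ended the call of 5 to 21 of the named values, most often without P0 replicates 1 and 3.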
